A study of Rattus norvegicus with 2 samples.

Results

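The cells described here are neutrophils of the infarcted rat heart that carried Retnlg transcripts and few transcripts of interferon-induced genes. They were chosen by their raw counts of unique molecular identifiers (UMIs, 1 per captured transcript). A cell needed 200 or more genes, at most 20% mitochondrial UMIs, 2% or more of its UMIs from S100a8 and S100a9 together, and 1 or more Csf3r UMIs. It could hold at most 1 UMI of C1qa, C1qb and C1qc together and none of Cd3e or Cd79b. Within these gated neutrophils, a member had 3 or more Retnlg UMIs and under 10 UMIs of Isg15, Ifit3 and Rsad2 together. Of the 29949 barcodes of the series, 246 were members, 222 in library 1 and 24 in library 2.

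The series profiled CD45+ cells, the leukocytes, sorted from the left ventricle (infarct and peri-infarct tissue) of rats labelled wt, 7 days after a myocardial infarction. One sample was labelled MI and the other MI+PUR-hAESC, an infarcted heart that also received a polyurethane patch carrying human amniotic epithelial stem cells. Both groups thus share the infarction, the time point and the sort on CD45 with propidium iodide as a dead-cell stain, and the number of hearts per library, the strain and the age are unknown here. The deposited matrix pools both libraries under barcode suffixes 1 and 2, which suffix belongs to which group is not stated in what was used, and so no value below is an effect of the patch. With 1 library on each side there was no test: intervals are 95% counting intervals of summed UMIs or cells and cover counting error only.

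Neutrophils are short-lived granulocytes that make their granule proteins in the bone marrow in waves, azurophil granules first, then specific granules, then gelatinase granules and secretory vesicles. Transcripts of the late waves fade as the cells leave the marrow, age and enter tissue, where genes for cytokines, chemokines and survival factors become active. Retnlg encodes a resistin-like secreted protein of rodent neutrophils. Type I interferon acts through STAT and IRF factors on genes such as Isg15, Ifit3 and Rsad2, and neutrophils with many such transcripts have been described in the infarcted heart.

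Among the markers of the label, Retnlg, S100a8 and S100a9 were part of the rule, and their levels are a description only. Levels are UMIs of a gene summed over the members and scaled to a common total, counts per 1000000 (CPM). Retnlg was at 4474 in library 1 and 9477 in library 2. S100a8 and S100a9, the subunits of calprotectin, were at 51402 and 128621 CPM in library 1 and at 73196 and 160328 CPM in library 2. Mmp8, the neutrophil collagenase of the specific granules, was not used by the rule: it had a UMI in 200 of 222 members of library 1 and in 20 of 24 of library 2. Its level was 2307 CPM (2195 to 2423) and 3664 CPM (3178 to 4205). Stfa2, a stefin that inhibits cysteine proteases, had a UMI in only 89 and 10 members, so it did not mark most of these cells. Against interferon-low neutrophils under 3 Retnlg UMIs, described below, all 5 label markers were higher in library 1. In library 2, 4 were higher and Stfa2 was lower.

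The 2 libraries held 72506643 and 82802439 UMIs, and the members had a median of 2698 UMIs and 819.5 genes in library 1 and of 2177 UMIs and 734.5 genes in library 2. All members together gave 693068 UMIs in library 1, where 1 UMI is 1.44 CPM, and 55399 UMIs in library 2, where 1 UMI is 18.1 CPM and a count of 0 allows up to 54.15 CPM. The libraries shared 71 barcodes, of which 1 belonged to a member, and a doublet caller (Scrublet) marked 9 and 1 of the members, which were kept. In library 1, 4 members above 8094 UMIs, 3 times the median, held 2202 of the 2814 UMIs of the 12 macrophage markers, all 12 of which had a UMI. That list summed to 4060 CPM in library 1 and 199 CPM in library 2, where 8 of 12 markers were at 0. Of these 8, the rule limited C1qa and C1qc, while Mrc1, Cd163, Adgre1, Trem2, Ms4a7 and Folr2 were free of it. The 11 markers of natural killer (NK) cells summed to 548 and 3213 CPM, with 179 of 229 and 121 of 131 Ccl5 UMIs in 1 cell of each library, and to 143 and 403 CPM without the marked doublets. B cell and mast cell markers summed to at most 54.15 CPM in either library, with the B cell marker Cd79b held at 0 by the rule. The part of this RNA of other cell types in the results was not tested, and values without these cells are given where they change.

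The members were a small share of the gated neutrophils in both libraries, and the libraries differed in what surrounded them. They made up 222 of 3062 gated neutrophils (7.25%, exact binomial interval 6.36 to 8.23) in library 1 and 24 of 1243 (1.93%, 1.24 to 2.86) in library 2. Gated neutrophils with 3 or more Retnlg UMIs were 13.4% of the gate in library 1 and 44.5% in library 2. Of those Retnlg-high cells, 54.15% (49.2 to 59.05) were low in the interferon genes in library 1, against 4.34% (2.80 to 6.39) in library 2. Among the cells under 10 interferon UMIs the members took like shares, 10.9% (9.62 to 12.4) of 2029 and 11.9% (7.76 to 17.2) of 202. The low share in library 2 thus went with the few cells under the interferon limit there, 16.2% of the gate against 66.3% in library 1.

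**Figure D1:**
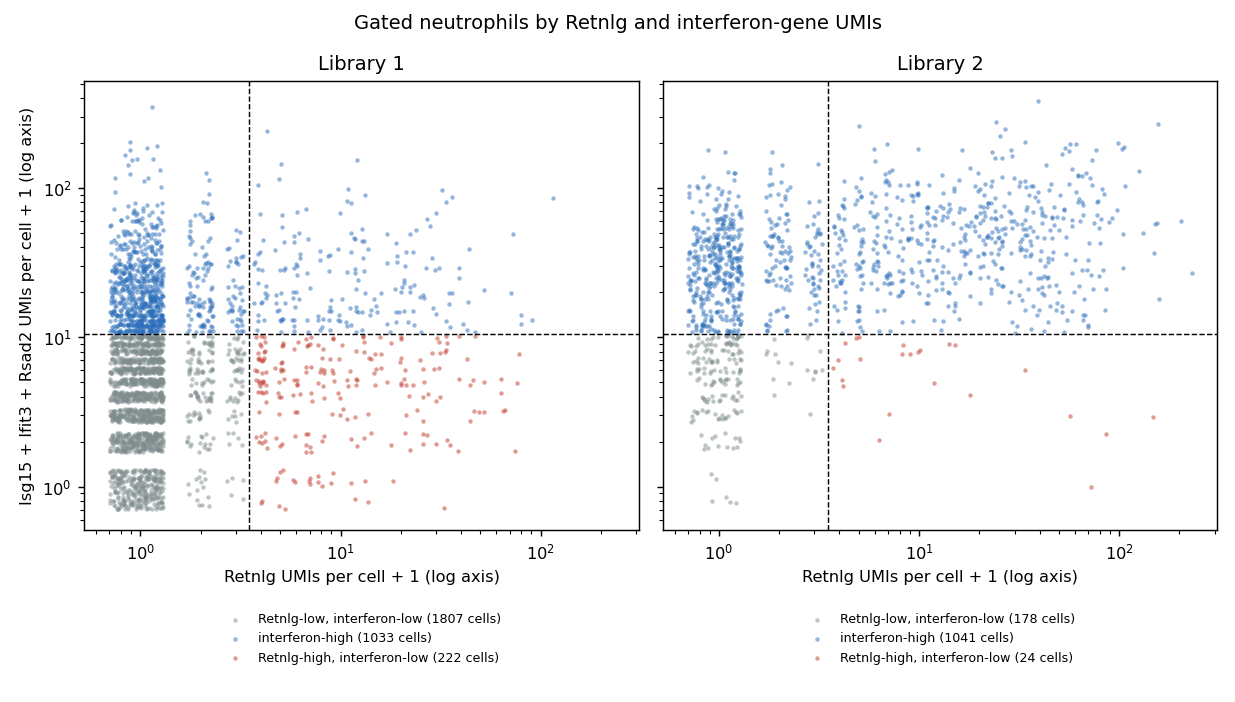
Each point is 1 gated neutrophil, with its Retnlg UMIs plus 1 on the x axis and its summed Isg15, Ifit3 and Rsad2 UMIs plus 1 on the y axis, both log scales with points jittered around whole numbers, library 1 on the left and library 2 on the right. Dashed lines mark 3 Retnlg UMIs and 10 interferon UMIs, and the members fill the lower right field, 222 cells in library 1 and 24 in library 2, where most Retnlg-high cells lie above the interferon line.

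The limits are numbers of UMIs, so depth bears on who is a member. Gated neutrophils under both limits, called Retnlg-low here (1807 and 178 cells), had a median of 2145 and 1922 UMIs. Those with 10 or more interferon UMIs, called interferon-high (1033 and 1041 cells), had 2485 and 2997. Members had a median of 7 Retnlg UMIs (3 to 77) and 4 interferon UMIs in library 1, and of 7.5 (3 to 147) and 5.5 in library 2. Of 759 and 1617 B cells, which should lack Retnlg, 0 reached 3 UMIs. Close to the limits, in library 1, 62 neutrophils with 2 Retnlg UMIs had 1584 CPM of Mmp8 and 4537 of Il1b, and 42 members with 3 had 1437 and 4046. At 9 interferon UMIs, 16 members had 2909 CPM of Mmp8, and at 10, 12 cells just outside had 1612. In library 2 these groups held 9 cells at 2 Retnlg UMIs and 5 at 3, with 1383 and 402 CPM of Mmp8. The counts run through both limits with no gap, so the members are a range of a scale.

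Several granule genes of marrow precursors had no UMI in the members, and several later ones were present. Mpo, Prtn3, Ctsg and Ltf, genes of the azurophil and specific granules, had 0 UMIs in the members of both libraries. Elane, neutrophil elastase of the azurophil granules, was an exception with 50 UMIs in library 1, from 38 members (72.1 CPM), and 2 in library 2. Lcn2 had 5 and 3 UMIs and Ngp 1 and 2. Camp, the cathelicidin precursor of the specific granules, was at 387 CPM in 120 of 222 members of library 1 and at 2581 CPM in 11 of 24 of library 2, where 50 of 143 UMIs came from 1 cell. Mmp9, the gelatinase, was at 366 and 524 CPM, and Pglyrp1, a peptidoglycan-binding granule protein, at 1271 and 1895 CPM. Hp, haptoglobin, was at 196 and 1480 CPM, with 34 of its 82 UMIs in library 2 from 1 cell.

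Of 23 neutrophil receptor genes, 5 were higher than in the Retnlg-low cells in both libraries and 11 lower, none past 2-fold in both, with median log2 ratios of -0.29 and -0.44 beside -0.13 and -0.32 over all genes. Of all genes, 16.6% were higher in both libraries and 47.7% lower, so the receptor counts are near the shares of all genes. Cxcr2, the chemokine receptor that draws neutrophils out of the marrow, was at 254 CPM in members and 245 in Retnlg-low cells of library 1, and at 361 and 277 in library 2. Lyz2 (lysozyme) and Chi3l1 (a chitinase-like granule protein) stood at 1.00 and 1.02 times the Retnlg-low level in library 1 and at 0.931 and 1.09 times in library 2. Cxcr4, the receptor that returns aged neutrophils to the marrow, was lower in members, at 267 against 451 CPM in library 1 and 217 against 355 in library 2.

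The next comparison set the members beside Retnlg-low neutrophils of the same library, which share the low interferon limit and were set apart by Retnlg. The groups also differed in their median share of S100a8 and S100a9 UMIs. It was 19.2% in members against 9.93% in library 1 and 19.5% against 8.23% in library 2. The part of this share in the ratios of other genes was not tested. The cells were split by a count of the same libraries, so the fold changes describe them and were not tested. A gene counted as different when it was past 2-fold, on log2(CPM + 10), in the same direction in both libraries. Of 3732 genes at 20 CPM or more in both libraries, 23 (0.616%) were higher in members and 24 (0.643%) lower. Retnlg, which set the split, is among the 23. Most of the 24 lower calls rest on 0 or 1 UMIs in the members of library 2, where 0 allows up to 54.15 CPM. Cxcl1 and Cd274, at 0 UMIs there against 72.1 CPM, cannot be shown to be past 2-fold in library 2. Taken alone, library 1 had 90 of 4047 higher (2.22%) and 56 lower (1.38%), and library 2, with fewer UMIs, 377 of 4406 higher (8.56%) and 1144 lower (26%). Granule genes stood among the higher ones and chemokine genes among the lower ones.

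Mmp8 was 4.22-fold (3.96 to 4.502) higher than in Retnlg-low cells in library 1, 2307 against 546.5 CPM, and 10.48-fold (8.35 to 13.2) in library 2, 3664 against 349.5 CPM. Thinned to 1500 UMIs per cell, so that depth is equal, 83.0% of 212 members in library 1 had a Mmp8 UMI against 33.0% of Retnlg-low cells. In library 2 it was 73.7% of 19 members against 27.1%, and 0.541% and 0.568% of B cells had one, taken here as the background of free RNA (without thinning, 90.1% and 83.3% of members and 0.791% and 1.36% of B cells, at median depths of 2942 and 2866 UMIs in B cells). The thinned Camp share was 38.2% and 47.4% in members, 12.8% and 10.4% in Retnlg-low cells and 0.270% and 0.189% in B cells. Camp CPM was 3.51-fold and 24.5-fold higher, Hp 3.38-fold and 7.73-fold, Mmp9 2.27-fold and 8.99-fold, and Pglyrp1 2.17-fold and 3.88-fold, in library 1 and library 2. Every fold was larger in library 2, which had 24 members and where single cells carried a large part of Camp and Hp.

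Counts of a list's genes in both libraries are over genes at the minimum in both, while its medians are over each library's own genes at the minimum, which can be more. That minimum is 20 CPM on either side, and 1 UMI in the members of library 2 is 18.1 CPM. A gene can thus enter a library 2 median through a few member UMIs alone, and is then higher by that choice. Library 2 medians here and below, 2.44 and 1.83 among them, are a description and no support. Of 7 specific granule genes, 5 were higher in members in both and 4 past 2-fold (Camp, Cybb, Hp and Mmp8). The median log2 ratio was 1.599 over 7 genes in library 1 and 2.44 over 10 in library 2, or 1.83 with the 3 genes at 0 on one side set to the count that 3 UMIs give. The median over all genes was -0.13 and -0.32, and 16.6% of all genes were higher in both libraries and 47.7% lower. The call of Cybb, a subunit of the NADPH oxidase, rests on the 4 deep members: 257 CPM in library 1 with them and 109 without, against 68.6 in Retnlg-low cells. Gelatinase granule and secretory vesicle genes were higher in 7 of 11, with medians of 0.745 (11 genes) and 2.03 (12 genes). This list holds Retnlg itself, which set the split, so its place among the 7 was fixed by the rule. Anxa1, a resolution mediator stored in gelatinase granules, was at 2362 against 1308 CPM in library 1 and at 3809 against 791 in library 2. Lbp, the lipopolysaccharide-binding protein, was 3.76-fold and 4.88-fold higher, with 92 and 6 UMIs, and Mettl9, a methyltransferase, 3.80-fold and 4.47-fold. Other genes past 2-fold in both were Mgst1 (a microsomal glutathione transferase), Slc2a3 (a glucose transporter), Anxa3, Stom, Ckap4, Dstn, Rgs10 and F2rl2. Actin and motility genes were higher in 12 of 21, with a median of 0.21 and 0.22, and none was past 2-fold in both libraries.

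Cytokine and activation genes were lower in the members. Of 10 inflammatory cytokine genes at the minimum in both libraries, 9 were lower in both and 5 past 2-fold. Of all genes, 47.7% were lower in both and 0.643% past 2-fold. Of these 5, Cxcl1 and Vegfa had 0 UMIs in the members of library 2, Ccl2 had 1 and Cxcl3 stood at only 36.1 CPM. The median log2 ratios were -1.10 over 10 genes in library 1 and -1.87 over 11 in library 2 (-1.10 there with genes at 0 set to the floor). Il1b, the gene of the inflammasome cytokine interleukin-1β, was at 3288 against 7170 CPM in library 1 and at 4170 against 6836 in library 2, which is 0.459 and 0.610 times. Per cell, its median was 26.9 per 10000 UMIs in members against 57.8 in Retnlg-low cells of library 1, and 40.8 against 54.0 in library 2. Cxcl2, a neutrophil-attracting chemokine, was at 7146 against 13149 CPM and at 2094 against 7698. After thinning, 80.7% of members had a Cxcl2 UMI against 88.1% of Retnlg-low cells in library 1, and 52.6% against 78.5% in library 2, with 6.08% and 3.85% of B cells.

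Ccl2, which attracts monocytes, was at 212 against 748 CPM in library 1 and had 1 UMI in the members of library 2, against 533 CPM in Retnlg-low cells. Ccl3, another chemokine, was at 414 against 901.5 CPM and at 180.5 against 1054. Vegfa, the angiogenic growth factor, was at 98.1 against 220 CPM in library 1, Cd274, the ligand of PD-1, at 28.9 against 99.6, and Csf1, the macrophage growth factor, at 26.0 against 75.85. In library 2 each of these 3 genes had 0 UMIs in the members, against 158, 72.1 and 108 CPM in Retnlg-low cells. Cxcl1 was at 43.3 against 222 CPM in library 1, from 11 members, and at 0 UMIs against 72.1 CPM in library 2. Where the Retnlg and interferon limits were shares of UMIs in place of numbers, the ratio of Cxcl1 in library 2 turned to 0.96 on the log2 scale. Cxcl3 was at 36.1 against 88.8 CPM in library 2. Its log2 ratio there turned to 0.305 with limits as shares and to 1.248 with an interferon limit of 5.

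Of 23 activation and survival genes, 19 were lower in both libraries, beside 47.7% of all genes, with medians of -0.67 and -0.93 (-0.62 at the floor). Among them, G0s2, an inhibitor of the lipase ATGL, was at 0.612 and 0.499 times the Retnlg-low level, and Nfkbia, the NF-κB inhibitor that NF-κB itself induces, at 0.543 and 0.654 times. Immediate early and stress genes were lower in 17 of 22, beside the same 47.7%, and none was past 2-fold in both. Their medians were -0.30 and -1.01 (-0.79 at the floor). Outside that list, Ddit3, the stress-induced factor CHOP, was past 2-fold lower in both libraries, at 426 against 906 CPM and at 505 against 1551. Of 25 type I interferon genes outside the rule, 3 were higher and 8 lower in both libraries, beside 16.6% and 47.7% of all genes, and none was past 2-fold. Of 16 interferon gamma and class I genes, 9 were lower in both, near the share of all genes, with medians of -0.45 and -0.12, the second above the -0.32 of all genes. B2m, the class I light chain, was at 0.730 and 0.736 times.

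The second comparison set the members beside all interferon-high neutrophils of the same library. Isg15, Ifit3 and Rsad2 divided these cells and are given as a description: Isg15 was at 460 CPM in members and 4533 in interferon-high cells of library 1, and at 830 and 6599 in library 2. The members were not free of these transcripts. After thinning, 44.3% and 57.9% of members had an Isg15 UMI, against 37.7% and 55.6% of Retnlg-low cells, 89.3% and 96.55% of interferon-high cells, and 2.97% and 6.31% of B cells. Of 3578 genes, 12 (0.335%) were higher in members past 2-fold in both libraries and 26 (0.727%) lower. Most of the 26 lower calls again rest on 0 or 1 UMIs in the members of library 2. Taken alone, library 1 had 59 of 3977 higher (1.48%) and 107 lower (2.69%), and library 2 411 of 3974 higher (10.3%) and 582 lower (14.6%).

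Type I interferon genes that the rule did not use were lower with the rule genes. Of 33 of them at the minimum in both libraries, 30 were lower in both and 7 past 2-fold, beside 36.3% of all genes lower in both. The medians were -1.195 and -0.61, against -0.06 and -0.05 over all genes. Of the 7, Mx1, Cmpk2, Usp18 and Cxcl10 had 0 UMIs in the members of library 2, against at most 33.9 CPM in interferon-high cells. That is under the 54.15 CPM that 0 UMIs allow there, so library 2 shows no fold for these genes. Ifi44 was at 33.2 against 101 CPM in library 1 and at 36.1 (2 UMIs) against 155 in library 2. Herc6, an ISG15 ligase, was at 17.3 against 111 CPM and at 36.1 (2 UMIs) against 97.7. Cxcl10, a T cell chemokine, was at 2.89 CPM (2 UMIs) against 172 in library 1 and at 0 UMIs against 26.1 CPM in library 2. Mx1 and Cmpk2 had 3 and 2 UMIs in the members of library 1 and 0 in library 2, against 44.2 and 55.3 CPM and 28.99 and 30.2 CPM, and Irf7, the interferon-induced transcription factor, was at 0.429 and 0.497 times. Of 17 interferon gamma and class I genes 13 were lower, Gbp5 and Irgm past 2-fold. Both had 0 UMIs in the members of library 2, against 23.6 and 64.6 CPM in interferon-high cells.

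Promoters are shown for Ifi44, one of the lower interferon genes, for the rule genes Ifit3 and Rsad2, with which it moved, and for Mmp8, which led the granule group. Each is the 300 bases from 250 before to 50 after the gene's start, from RefSeq on GRCr8, printed 5′ to 3′ on the gene's strand. Capitals mark the interferon-stimulated response element (ISRE, here GAAA, any 2 bases and GAAA, or on the other strand TTTC, any 2 bases and TTTC) in the interferon genes and a C/EBP motif (TTNNGCAAT or ATTGCNNAA) in Mmp8.
Ifit3, chr1:241527076-241527375, plus strand: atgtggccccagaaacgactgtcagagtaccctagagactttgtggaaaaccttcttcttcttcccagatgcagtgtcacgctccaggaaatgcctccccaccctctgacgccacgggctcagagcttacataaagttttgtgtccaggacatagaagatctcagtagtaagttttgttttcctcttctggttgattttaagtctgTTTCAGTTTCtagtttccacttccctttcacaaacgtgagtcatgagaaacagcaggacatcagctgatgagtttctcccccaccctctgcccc
Ifi44, chr2:243303791-243304090, minus strand: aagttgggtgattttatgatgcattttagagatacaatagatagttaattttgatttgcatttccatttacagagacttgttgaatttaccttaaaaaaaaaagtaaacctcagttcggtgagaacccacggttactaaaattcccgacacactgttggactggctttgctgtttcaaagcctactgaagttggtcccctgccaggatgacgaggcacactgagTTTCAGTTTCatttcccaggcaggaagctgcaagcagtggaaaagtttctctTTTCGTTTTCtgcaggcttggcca
Rsad2, chr6:48788071-48788370, minus strand: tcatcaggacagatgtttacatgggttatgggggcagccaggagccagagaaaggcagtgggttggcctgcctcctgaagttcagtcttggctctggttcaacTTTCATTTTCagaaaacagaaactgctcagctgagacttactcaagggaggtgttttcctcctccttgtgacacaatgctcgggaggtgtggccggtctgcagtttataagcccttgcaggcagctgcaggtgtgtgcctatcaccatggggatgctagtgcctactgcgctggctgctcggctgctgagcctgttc
Mmp8, chr8:13008640-13008939, plus strand: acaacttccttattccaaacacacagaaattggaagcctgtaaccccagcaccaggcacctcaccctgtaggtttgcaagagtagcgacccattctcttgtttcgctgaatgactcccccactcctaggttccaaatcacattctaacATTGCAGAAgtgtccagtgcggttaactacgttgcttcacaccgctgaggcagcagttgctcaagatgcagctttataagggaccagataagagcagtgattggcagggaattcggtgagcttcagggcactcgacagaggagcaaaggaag
The ISRE letters began 44 bases before the start in Ifit3, 26 before and 26 after it in Ifi44, and 147 before it in Rsad2. They occurred in 5 of the 9 promoters found for the 12 named genes lowest against interferon-high cells (also Irgm and Ogfr). Ifit3 and Rsad2 belong to the rule, and without the rule genes it was 3 of 7 promoters. The letters occurred in 0 of 4 found for the label markers, and in 1312 of all 33469 promoters of that length (3.92%). The C/EBP letters began 102 bases before the start of Mmp8 and occurred in 781 of all promoters (2.33%). They occurred in 1 of 8 promoters found for the 12 named genes highest over Retnlg-low cells and in 1 of 4 for the label markers. That promoter was Mmp8 in both groups, so the granule genes as a group did not share these letters. The ISRE letters also occurred in 1 of those 8. Such a match is a string of letters in a window and does not show that a factor binds there.

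Granule genes were also higher in members than in the whole of the interferon-high cells, Mmp8 3.01-fold and 2.95-fold, Mmp9 2.99-fold and 5.215-fold, and Camp 2.44-fold and 6.885-fold. The interferon-high cells mix Retnlg-high with Retnlg-low cells, 188 with 845 in library 1 and 529 with 512 in library 2. The gated neutrophils were therefore split in 4, by Retnlg and by the interferon genes. This split was chosen after the data were seen.

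Among interferon-high cells, those with 3 or more Retnlg UMIs had higher levels of several of the same granule genes. Mmp8 was at 1968 against 441 CPM in library 1 and at 1720 against 511 in library 2, log2 ratios of 2.13 and 1.73, beside 2.06 and 3.35 among interferon-low cells. Camp was at 358 against 104.5 CPM and at 529.5 against 138, log2 ratios of 1.69 and 1.87, beside 1.72 and 4.49. Hp gave 1.795 and 1.865, beside 1.599 and 2.89, Lbp 1.501 and 1.35, beside 1.66 and 1.88, and Pglyrp1 1.08 and 1.02, beside 1.11 and 1.94. Il1b was lower with Retnlg in both fields, by log2 ratios of -0.67 and -0.38 among interferon-high cells and of -1.12 and -0.71 among interferon-low cells. Nfkbia gave -0.81 and -0.48, beside -0.88 and -0.61.

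Of 3630 genes, 12 (0.331%) were higher with Retnlg past 2-fold in both libraries among interferon-high cells and 3 (0.0826%) lower. Of these 12, 9 were among the 23 genes higher in members than in Retnlg-low cells (39.1% of the 23): Retnlg, Mmp8, Camp, Hp, Lbp, Pglyrp1, Mettl9, Ckap4 and a gene named AABR07001382. Olfm4 (olfactomedin of a subset of specific granules), Spp1 (osteopontin) and Tnnc1 (a troponin) were the other 3. The 2 comparisons share no cells, but they share the libraries and the Retnlg limit, and that limit put Retnlg itself among the 9. None of the 3 lower genes (Cxcl10, Olr1 and Sparc) was among the 24 lower in members. Of those 24, 21 were also lower with Retnlg among interferon-high cells in both libraries, by less than 2-fold in at least 1 of them, beside 59.9% of all 3630 genes. The cytokine list had medians of -1.01 and -0.42 among interferon-high cells, beside -1.10 and -1.87 among interferon-low cells.

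**Figure D2:**
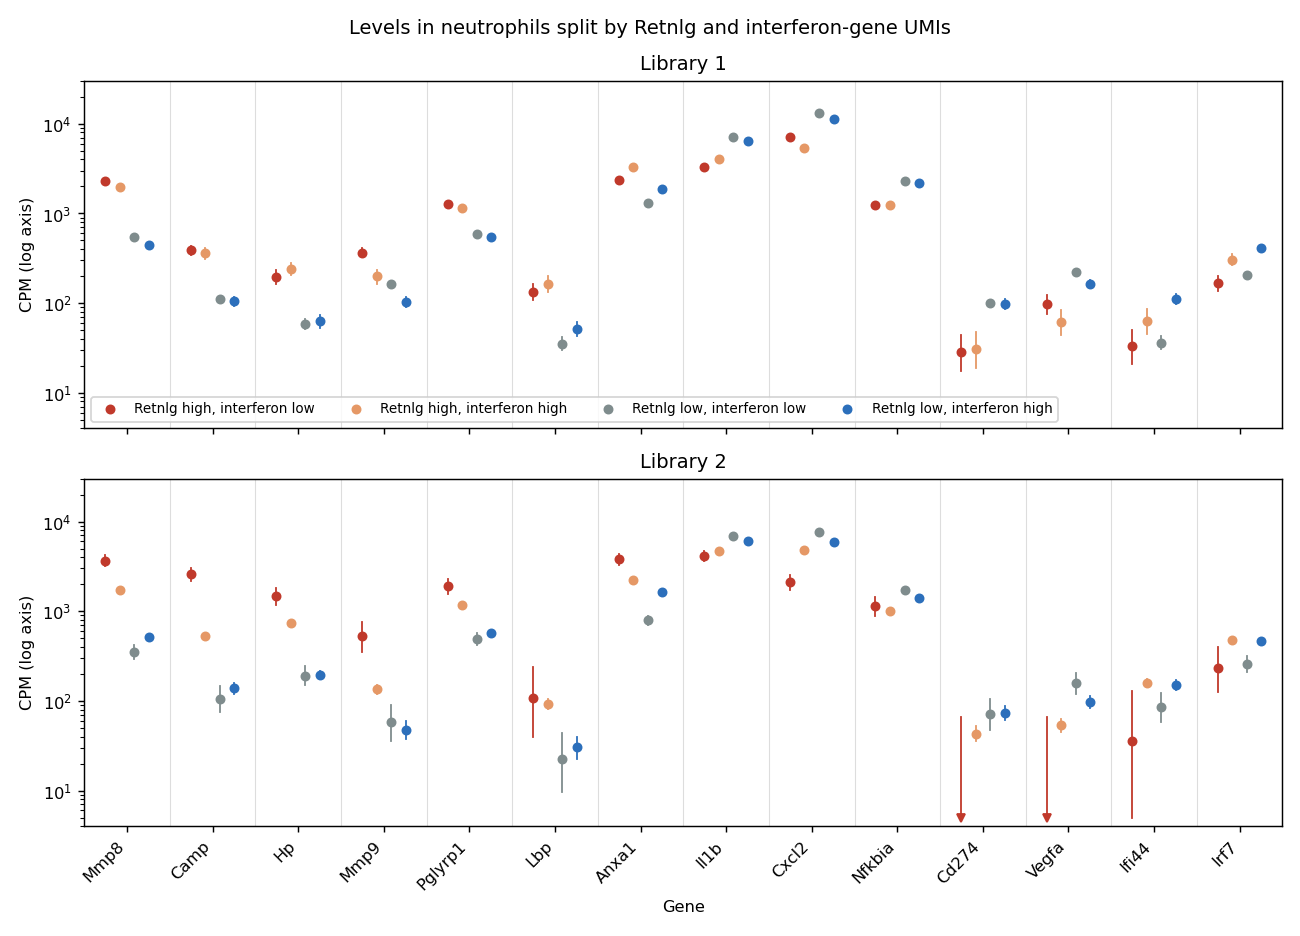
CPM on a log axis of 14 genes in 4 classes of gated neutrophils, split by 3 Retnlg UMIs and 10 interferon UMIs, with 95% exact Poisson intervals (counting error only), for both libraries; downward triangles mark 0 UMIs with a line up to the upper limit. Mmp8 and Camp are higher in both Retnlg-high classes, Il1b and Nfkbia lower, and Ifi44 and Irf7 follow the interferon split.

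The members were also set beside the interferon-high cells that had 3 or more Retnlg UMIs. Of 3455 genes, 6 (0.174%) were higher past 2-fold in both libraries and 15 (0.434%) lower. Alone, library 1 had 103 of 3908 higher (2.64%) and 84 lower (2.15%), and library 2 444 of 3872 higher (11.5%) and 506 lower (13.1%). No granule gene was among the higher ones. Of 8 specific granule genes 4 were higher and 3 lower in both libraries, with medians of -0.06 over 8 genes and 0.79 over 11, and Olfm4 was the 1 past 2-fold, at 14.4 against 53.8 CPM in library 1 and at 0 UMIs against 41.8 in library 2. Mmp8 stood at 2307 against 1968 CPM in library 1 and at 3664 against 1720 in library 2. Of 32 type I interferon genes 28 were lower in members in both libraries, beside 24.6% of all genes, with medians of -0.87 and -0.59, and Mx1, Cmpk2 and Herc6 were past 2-fold. Mx1 and Cmpk2, like Olfm4, had 0 UMIs in the members of library 2, where that allows up to 54.15 CPM. Thinned shares of cells with a Mmp8 UMI were 82.9% and 78.4% in those Retnlg-high interferon-high cells, beside 83.0% and 73.7% in members.

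**Figure D3:**
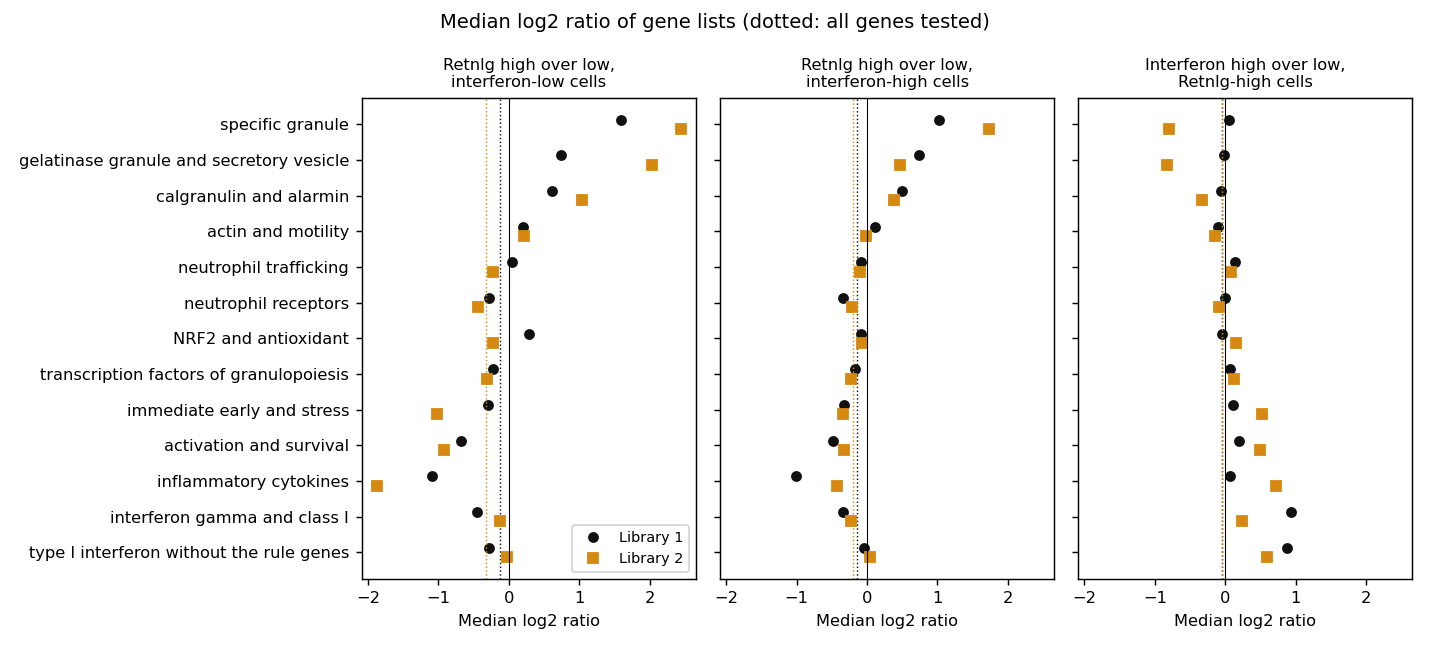
Median log2 ratio of CPM + 10 (x axis) of 13 gene lists in 3 contrasts of the 4 classes: Retnlg-high over Retnlg-low among interferon-low cells (members over Retnlg-low cells), the same among interferon-high cells, and interferon-high over interferon-low among Retnlg-high cells (the members are the lower side). Circles are library 1, squares library 2 and dotted lines the medians over all genes: specific granule genes lie to the right in both Retnlg contrasts (1.599 and 2.44, then 1.03 and 1.73), and type I interferon genes lie to the right in the interferon contrast (0.87 and 0.59). The gelatinase granule list holds Retnlg, which set the Retnlg contrasts. Library 2 medians that involve the members can rest on genes that entered through a few member UMIs alone.

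Between the members of the 2 libraries, 509 of 4072 genes (12.5%) were past 2-fold higher in library 2 and 727 (17.9%) lower, with 693068 UMIs behind library 1 and 55399 behind library 2. With a counting interval off 1 as well, 176 (4.32%) were higher and 89 (2.19%) lower. Scaled by TMM, 27.7% of the genes past 2-fold were higher in library 2, against 41.2% with CPM, and the median of all genes was -0.31 in place of -0.07. The balance turned under other settings, to 773 higher and 661 lower with cells weighted alike, 999 and 946 when thinned, and 821 and 706 without the deepest and the Ccl5-richest members. Retnlg was 2.12-fold (1.93 to 2.32) higher in library 2, Camp 6.67-fold (5.41 to 8.21), Serpinb1a (an inhibitor of neutrophil elastase) 3.81-fold (3.09 to 4.67), and Hmgb2 2.38-fold. In library 2, the 3 highest cells for each gene held 121 of the 143 Camp UMIs, 303 of the 525 Retnlg UMIs and 55 of the 124 Serpinb1a UMIs. With every cell weighted alike, Camp was at 398 and 1587 CPM, a fold of 3.99, and the folds of Retnlg, Serpinb1a and Hmgb2 were 1.73, 4.015 and 1.88. Cxcl2 was at 0.293 times (0.242 to 0.352) and Slpi, another elastase inhibitor, at 0.492 times.

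Below the limit of the rule, interferon genes still differed between the libraries. Of 28 type I interferon genes, 23 were higher in the members of library 2 and 9 past 2-fold, with a median of 0.66. Over all genes, 12.5% were past 2-fold higher and the median was -0.07. A gene was included at 20 CPM in either library, and 1 UMI in library 2 is 18.1 CPM. Genes that reached this in 1 library alone had to come out higher there, such as Herc6 in library 2 (17.3 and 36.1 CPM). The list counts in this paragraph are thus a description. Of 15 interferon gamma and class I genes, 14 were higher and 10 past 2-fold, with a median of 1.09. Ifi27 was 2.13-fold (1.58 to 2.83) and Ifi27l2b 2.015-fold higher. Of 11 cytokine genes 9 were lower in library 2, with a median of -1.19 (-0.95 at the floor), and of 10 specific granule genes 6 were higher, with a median of 1.28. All 6 NK cell markers at the minimum were higher in library 2 and all 6 macrophage markers lower. Most UMIs of both lists came from the single cells named above, and Apoe was at 3182 CPM in library 1, or 730 without the 4 deep members. All 12 mitochondrially encoded genes were lower in library 2, with a median of -0.77 (-0.31 with cells weighted alike, where Mt-atp6, a subunit of ATP synthase, was higher in library 2, at 1365 against 1178 CPM). Whether group, heart or preparation lies behind these differences cannot be told apart.

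Within library 1 the members varied along Retnlg itself. They were ordered by Retnlg per UMI and cut into 3 groups of 74 cells, with 3.51 to 18.25, 18.4 to 49.1 and 51.3 to 286 Retnlg UMIs per 10000. The per-cell median of Mmp8 was 8.74, 17 and 32.7 per 10000 UMIs from the lowest to the highest group, that of S100a8 398, 499.5 and 684, and that of S100a9 1041, 1323 and 1643. Anxa1 gave 14.5, 16.1 and 22.3, and Sod2 (mitochondrial superoxide dismutase) 19.3, 30.2 and 36.2. Il1b gave 28.7, 31.2 and 20.1, Cxcl2 43.4, 34.4 and 32.9, and G0s2 86.0, 80.8 and 59.1. The cytokine list did not move one way: without the 4 deep members, 5 of 10 genes were higher in the highest group and 5 lower, with a median log2 ratio of 0.03. Cxcl3 was at 31.9, 77.8 and 360 CPM and Cxcl1 at 13.7, 10.4 and 93.5 from the lowest to the highest group, with UMIs in 14 and 11 of the 222 members. The cells overlapped widely in every gene.

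**Figure D4:**
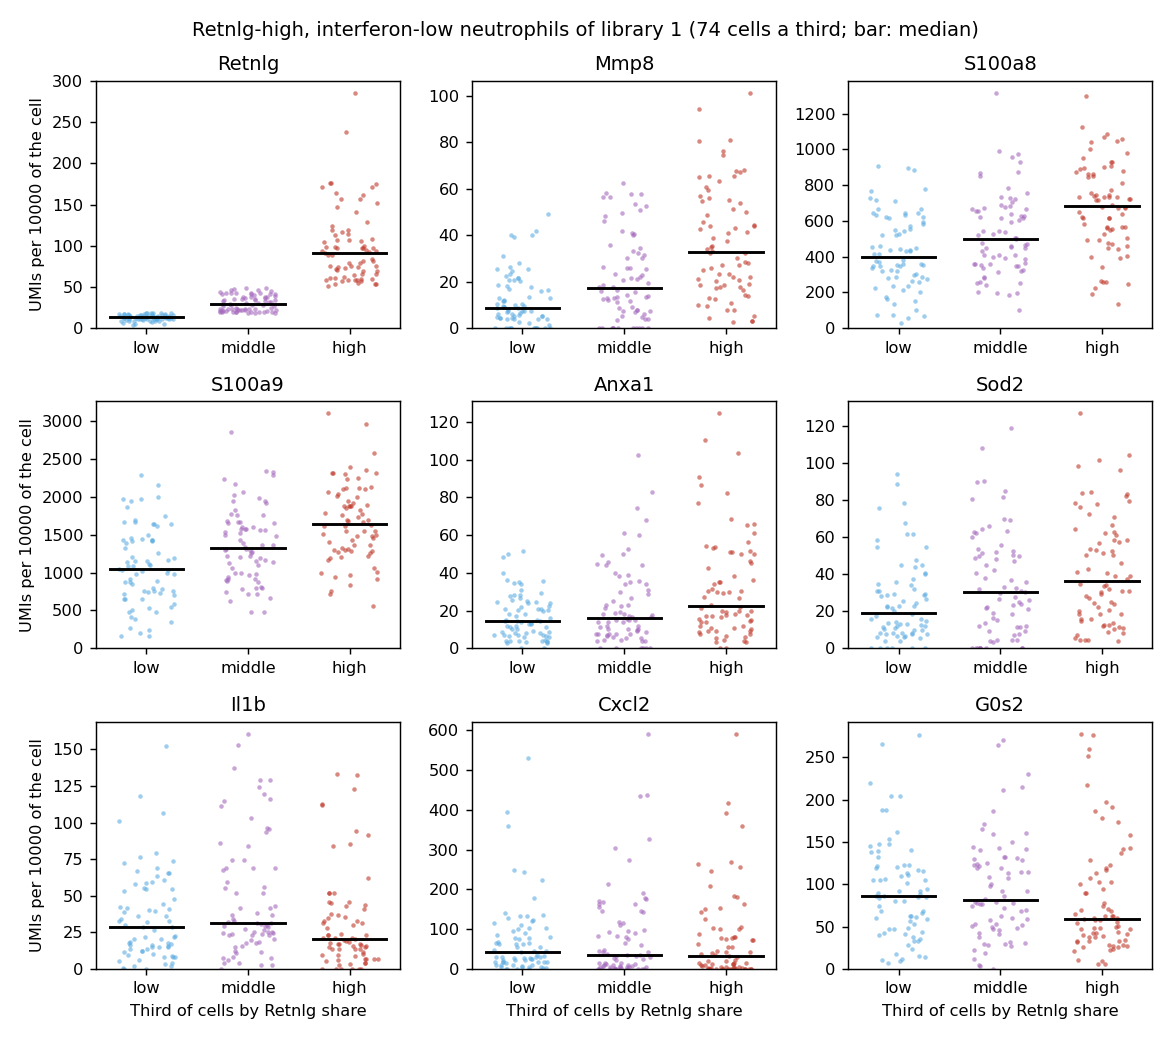
UMIs per 10000 of 9 genes in each of the 222 members of library 1, in 3 groups of 74 by their Retnlg share, with a bar at the median. Retnlg set the groups; Mmp8, S100a8 and S100a9 step up across them (Mmp8 8.74, 17 and 32.7), while G0s2 is lowest in the highest group.

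Summed over cells without the 4 deep ones, Camp was at 223, 295.5 and 738.5 CPM, Hp at 91.2, 166 and 383, Lbp at 68.4, 104 and 243, and Stfa2 at 1422, 2089 and 3365. Stfa2l1, a stefin of the same family, was at 31.9, 88.1 and 397 CPM, but its UMIs came from 14 of 222 members. In these cells, 120 of 3971 genes (3.02%) were past 2-fold higher in the highest group and 740 (18.6%) lower. With the deep members it was 105 (2.38%) and 1214 (27.5%) of 4416. The specific granule list had a median log2 ratio of 1.42 (1.13 with the deep members), and the median over all genes was -0.27.

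The lowest group also had larger shares of other kinds of RNA. Ribosomal protein genes were lower in the highest group in 14 of 14, with a median of -1.58, mitochondrially encoded genes had a median of -1.24, and immediate early genes were lower in 21 of 21 (-0.66). Macrophage markers were lower in 7 of 7 (-1.90) and NK markers had a median of -1.71, all without the deep members. The S100 share that the gate used was 14.1%, 18.7% and 23.6% from the lowest to the highest group. The part of RNA of other cell types and of this share in the differences was not tested.

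Over 212 members of library 1 with 1500 or more UMIs, thinned to that depth, Spearman's rho with Retnlg was 0.438 for Mmp8, 0.405 for S100a8, 0.356 for S100a9, 0.30 for Anxa1, 0.295 for Sod2 and 0.291 for Tf, and -0.273 for Ninj1. The cells share 1 library and the counts are sparse, so these are a description. Tf, transferrin, which binds iron, was at 1200 CPM in members against 642 in Retnlg-low cells of library 1 and at 2473 against 499 in library 2.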

How the data were processed

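CD45+ cells of 2 samples were profiled by droplet single-cell RNA-seq (10x 3′ v2 chemistry, NovaSeq, per the labels' protocols). The authors deposited 1 matrix of raw UMI counts, which Cell Ranger 4.0.0 wrote, per the file headers. Build, annotation and the calling of cells: not given in the sources used here. It has 32623 genes (26976 symbols after adding rows of 1 symbol) and 29949 barcodes with 155309082 UMIs. A second deposited table of 33756 barcodes shared 111 with the matrix, 0 of them members, and was not used.

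Per class and library, raw counts were added up and scaled to CPM. Ratios are log2(CPM + 10), for genes at 20 CPM or more in either class, and a gene is past 2-fold by that ratio. Intervals are exact Poisson, or exact Clopper-Pearson for shares, at 95%. PCR copies are removed by UMIs, but intervals cover counting error only. Shares of cells were also computed after thinning to 1500 UMIs (seed 1), which left out 10 and 5 members. Scrublet (expected share 8%) called 4.07% and 6.82% of passing cells; leaving its calls out was an alternative. The ratio calculation recovered known changes in simulated counts, but these changes were larger than 2-fold, in well-counted genes, with no differences between cells. They do not bear on calls near the minimum or on genes that single cells carry. No test and no p-value was computed, since each group has 1 sample.

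The members and gene lists were chosen with earlier results of these data known. Named genes are the label markers, the highest and lowest ratios of each comparison (12 each, at 50 UMIs in library 1 and 50 CPM in both libraries) and list examples; Mgst1, Slc2a3, Cxcr4, Nfkbia, Olfm4 and other genes outside this rule were named after their values were seen. Alternatives covered the pseudocount, the minimum, TMM scaling, equal weight per cell, thinning, doublets and the limits of the rule. With the stricter limits, cells between limits can fall in no class. Python 3.11.15 was used with numpy 2.4.6, scipy 1.17.1, pandas 2.3.3, scanpy 1.11.5, scikit-learn 1.9.0 and matplotlib 3.10.9. Values of some genes are not reported here.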

Additional observations from a re-analysis of the deposited data

How the results depend on the processing

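Shares and counts of genes are descriptions with no test. Recomputed under the alternatives, 59 of their values stayed within their interval or within 1.5 times and 41 moved; for list medians 873 kept, 324 moved and 20 turned sign, and for named genes 1233 kept, 256 moved and 7 turned sign. The members' share of passing barcodes moved with the limits of the rule, from 1.57% in library 1 to 2.01% (Retnlg 2 or more), 1.10% (5 or more), 0.948% (interferon genes under 5) and 2.24% (under 20), and from 0.154% in library 2 to 0.0643% and 0.649% with the interferon limits of 5 and 20.

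Against Retnlg-low cells (23 higher, 24 lower), a pseudocount of 1 gave 37 and 77, one of 50 gave 8 and 4, and an interferon limit of 5 gave 35 and 48. The lower genes numbered 78 when thinned, 38 without Scrublet calls, 40 with Retnlg 5 or more and 37 without the deep members. The same contrast among interferon-high cells, an alternative chosen after seeing the data, gave 12 and 3. Against interferon-high cells (12 higher, 26 lower), the pseudocounts gave 23 and 51, and 4 and 3; with interferon-high cells of 3 or more Retnlg UMIs, also chosen after seeing the data, it was 6 and 15. The lower genes numbered 66 when thinned, 51 with Retnlg 5 or more and 73 with the interferon limit of 5, and the higher ones 19 with limits as shares of UMIs.

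Between the libraries (509 higher, 727 lower), a pseudocount of 50 gave 71 and 134, no minimum 837 and 1483, and the interferon limit of 5 gave 820 and 1579. The higher genes numbered 773 with cells weighted alike, 999 when thinned, 810 without Scrublet calls, 938 with Retnlg 5 or more and 821 without the deepest and the Ccl5-richest members, and the lower ones 475 with limits as shares. Without the deep members, 740 genes in place of 1214 were lower in the members highest in Retnlg.

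The sign turned, as log2 ratios, in these cases. Against Retnlg-low cells of library 1, ribosomal protein genes gave -0.113 (cells weighted alike), -0.121 (thinned) and -0.138 (limits as shares), and class II genes -0.324 (without Scrublet calls) and -0.230 (limits as shares). In library 2, limits as shares gave -0.117 for Cox7c, 0.965 for Cxcl1 and 0.305 for Cxcl3, cell division genes gave 0.548 (Retnlg 5 or more), and Cxcl3 1.248 (interferon limit of 5). Against interferon-high cells of library 1, class II genes gave 0.299 (cells weighted alike), 0.577 (thinned), 0.015 (without Scrublet calls), 0.850 (limits as shares), 0.107 (Retnlg 5 or more) and 0.872 (interferon-high cells with 3 or more Retnlg UMIs, where specific granule genes gave -0.059). Mitochondrially encoded genes gave -0.031 (cells weighted alike) and -0.062 (thinned), and Cybb -0.16 without the deep members. In library 2, cell division genes gave 0.557 (cells weighted alike), 0.497 (Retnlg 5 or more) and 0.058 (interferon limit of 5), class II genes 0.001 (without Scrublet calls), and limits as shares 0.045 for mitochondrially encoded genes and 0.160 for Rsad2. Between the libraries, Ccl5 gave -1.026 with the interferon limit of 5. The cause was not tested.

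TMM scaling moved the median of all genes against interferon-high cells of library 2 from -0.05 to -0.30, and the share of higher among its genes past 2-fold from 41.4% to 25.4%. Against Retnlg-low cells of library 1 that share was 61.6%, and 37.4% with cells weighted alike and 27.2% when thinned. Against interferon-high cells of library 1 it was 35.5%, 18.9% and 21.1%. Between the libraries it was 41.2%, 53.9% and 51.4%. No paired analysis was possible because each group has 1 sample, and no replicate could be left out. With 55399 UMIs in library 2, genes under 54.15 CPM there cannot be told from 0.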
